A study of Mus musculus with 8 samples.

Results

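The replication-dependent core histone genes encode the bulk of the H2A, H2B, H3 and H4 proteins around which DNA is wound. They were followed in mouse embryonic fibroblasts (MEFs) with and without Atm. Members were the genes whose current RefSeq symbol starts with H2ac, H2bc, H3c or H4c followed by a number, the older Hist1h and Hist2h genes. Of 59 such symbols, 55 had a probe on the array, each 1 probe and 1 spot, among 19259 genes and 37246 probes in all. Of these 55, 47 gave a signal well above background on 2 or more arrays and were analysed (kept), among 23305 kept probes. Kept members were 14 of 16 H2A genes, 14 of 16 H2B genes, 11 of 12 H3 genes and 8 of 11 H4 genes. The other 8, H2ac1, H2ac21, H2bc1, H2bc3, H3c1, H4c3, H4c11 and H4c14, were well above background on no array. H2ac5-ps, H2ac14, H2ac23 and H4c17 had no probe. Of the kept genes, 39 lie on chromosome 13 and 8 on chromosome 3.

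The study compared Atm-/- MEFs with Atm+/+ littermate MEFs, each untreated (0 h) and at 4, 8 and 24 h after neocarzinostatin (NCS). NCS is a drug that breaks both DNA strands, as ionizing radiation does. Atm encodes a kinase activated by such breaks. Each genotype and time point had 1 array, so 8 arrays gave 8 groups, and each culture was grown in 15% fetal calf serum. The number of embryos or cell lines, the dose of NCS and the exact Atm allele are not given in the sources used here. The spread between arrays may therefore be technical.

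Most messenger RNAs end in a poly(A) tail, but replication-dependent histone mRNAs end in a conserved stem-loop that the protein SLBP binds. They accumulate in S phase, when new chromatin must be packaged, and are degraded when DNA synthesis stops. NPAT, bound at the clustered histone genes, drives their transcription. Many H2A and H2B genes lie head to head and are transcribed away from a shared promoter. The labelling here used random priming after removal of ribosomal RNA, so transcripts without poly(A) could be measured. Copies within a family code for nearly the same protein, and the sequence of each probe was not used here. Which copies a probe reads was not tested, so each symbol stands for the gene to which the probe was designed.

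The promoters of the genes on which the results turn are shown from the RefSeq promoter table (GRCm38.p6), as the 250 bases before the start, 5′ to 3′ on the gene's strand. Capitals mark the letters CCAAT or TATAAA, or those of the octamer ATTTGCAT, on either strand. H2ac22 (chr13:21787249-21787498, minus strand) stands for a head-to-head pair. Its start lies 240 bases from that of H2bc22, so nearly the same stretch, read on the other strand, is the H2bc22 promoter. H2ac11 (chr13:22042950-22043199, minus strand) shares its stretch with H2bc11 in the same way, with 249 bases between the starts. H3c10 (chr13:21717378-21717627, plus strand) and H4c8 (chr13:23530794-23531043, plus strand) are shown as members of the other families.
H2ac22: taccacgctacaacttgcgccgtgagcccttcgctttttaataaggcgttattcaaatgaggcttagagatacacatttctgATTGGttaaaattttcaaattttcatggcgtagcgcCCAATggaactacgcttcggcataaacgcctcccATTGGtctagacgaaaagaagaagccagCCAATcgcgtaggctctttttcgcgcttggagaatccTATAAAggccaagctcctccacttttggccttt
H2ac11: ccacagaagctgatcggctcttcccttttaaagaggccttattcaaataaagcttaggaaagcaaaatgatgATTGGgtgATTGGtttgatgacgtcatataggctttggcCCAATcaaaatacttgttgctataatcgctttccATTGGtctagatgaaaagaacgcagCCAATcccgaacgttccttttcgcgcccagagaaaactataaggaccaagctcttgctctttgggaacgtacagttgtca
H3c10: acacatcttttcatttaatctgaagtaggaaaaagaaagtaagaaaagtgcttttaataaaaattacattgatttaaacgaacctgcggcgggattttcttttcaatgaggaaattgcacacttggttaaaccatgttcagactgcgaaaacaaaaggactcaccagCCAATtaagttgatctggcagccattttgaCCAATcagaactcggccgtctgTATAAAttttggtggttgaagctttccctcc
H4c8: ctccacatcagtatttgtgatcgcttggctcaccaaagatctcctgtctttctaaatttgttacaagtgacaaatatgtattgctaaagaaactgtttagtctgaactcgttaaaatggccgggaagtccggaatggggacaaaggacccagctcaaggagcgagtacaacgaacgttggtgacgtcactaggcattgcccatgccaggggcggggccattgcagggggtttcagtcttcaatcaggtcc

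H2ac22 held 4 copies of CCAAT and 1 of TATAAA, H2ac11 held 5 copies of CCAAT, H3c10 held 2 and 1 TATAAA, and H4c8 held none of these letters. Over windows of 300 bases that reach 50 bases past the start, CCAAT was in 44 of 51 promoters of 50 member genes (86.3%), against 37.4% of all 32851 promoters in the table. TATAAA was in 29 (56.9%), against 13.6%, and the octamer in 13 (25.5%), against 1.74%. All H2A, H2B and H3 promoters in the table held CCAAT, but 3 of 10 H4 promoters did. The octamer stood in 6 of 16 H2A and 7 of 15 H2B promoters and in no H3 or H4 promoter. A match is a description of letters and not a binding site.

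Levels are log2 processed intensities relative to the 75th percentile of all probes on the same array, and differences are log2 differences of these levels within a probe. Between 57.3% and 61.4% of spots were well above background on each array, and no spot was saturated. The Atm+/+ 24 h array stood apart, with 1545 spots marked as outliers against 44 to 203 on the other 7 arrays. H2bc4 lacked its value on that array and H3c4 its value on the Atm-/- 8 h array, and both were fitted without them. All Atm-/- arrays were on 1 slide and all Atm+/+ arrays on another, and a position on the slide held 1 time point. Slide and genotype, and position and time, cannot be told apart. The Y-linked genes Ddx3y, Eif2s3y, Kdm5d and Uty were well above background on no Atm-/- array, and Xist was so on 4 Atm-/- arrays and 1 Atm+/+ array, so the sex of the embryos and the genotype cannot be told apart either. Of the marker lists, all 11 fibroblast markers were kept, with a summed level of 628 to 726 times the array's 75th percentile in Atm-/- cultures and 787 to 862 times in Atm+/+ cultures. On the same scale, the 10 of 12 macrophage and blood markers that were kept summed to 16.9 to 25.0 in Atm-/- and 35.9 to 59.2 in Atm+/+ cultures. The 9 of 12 kept epithelial markers summed to 9.38 to 15.8 in Atm-/- and 5.22 to 9.94 in Atm+/+ cultures, where Epcam was well above background on no array. The 7 of 8 kept endothelial markers summed to 2.64 to 5.65 in Atm-/- and 1.23 to 2.02 in Atm+/+ cultures. Between genotypes, 9 macrophage and blood and 5 fibroblast markers were lower and 7 epithelial and 4 endothelial markers higher in Atm-/- cultures, and their part in the results on histone genes was not tested. The Atm probe was lower in Atm-/- cultures by 1.24 ± 0.18 (SE, n = 4 arrays a genotype, limma adjusted p = 0.0137). Whether that probe lies in the deleted part was not tested.

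Many core histone genes were higher in Atm-/- than in Atm+/+ cultures. With time point as a term, 22 of 47 members were higher in Atm-/- and 2 were lower, at a limma adjusted p under 0.05. Over all 23297 probes tested, 7.28% were called higher and 7.38% lower. The difference was above 0 in 43 of 47 members, with a median of 0.46 log2 against 0.01 over all probes. All 4 Atm-/- arrays were above all 4 Atm+/+ arrays in 22 of the 45 members with 8 values, against 9.74% of 21564 such probes. All 4 were below in 0 of 45, against 8.31%. The 2 sets of 22 genes differ: 18 of the genes called higher were separated in this way, and the other 4, H2ac7, H2ac22, H3c8 and H4c8, overlapped while staying higher in Atm-/- at each time point.

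**Figure D1:**
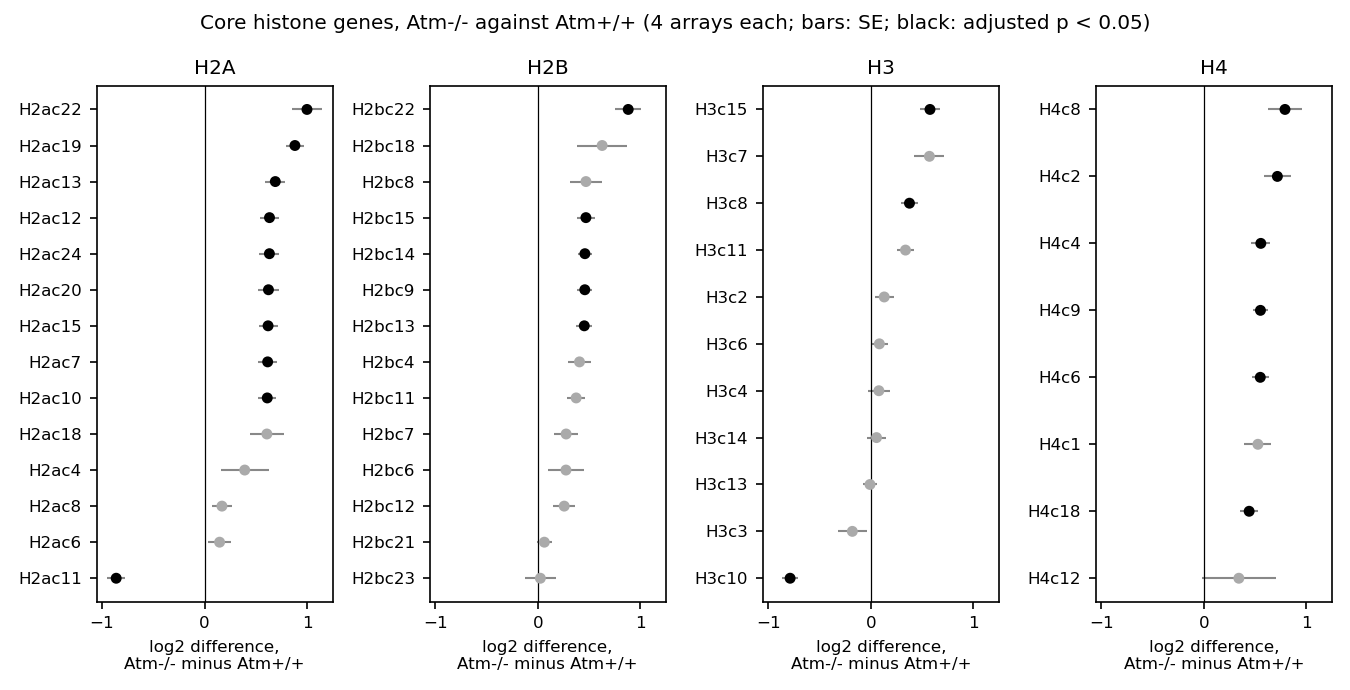
Log2 difference of each of the 47 kept core histone genes, Atm-/- minus Atm+/+, by family, from 4 arrays a genotype with time point as a term. Points are genes, bars are SE, and black points had a limma adjusted p under 0.05. Nearly all H2A, H2B and H4 genes lie right of 0, and H2ac11 and H3c10 lie left of it. H3 genes spread from -0.79 to 0.58, with a median of 0.08.

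H2A and H2B form the dimers that flank the core of the nucleosome. Of 14 H2A genes, 9 were higher and 1 lower in Atm-/- cultures, with a median of 0.62. H2ac22, the older Hist1h2an, stood at 3.003, 2.98, 2.34 and 1.59 at 0, 4, 8 and 24 h in Atm-/- cultures, against 2.26, 1.98, 0.86 and 0.82 in Atm+/+ cultures. It was higher in Atm-/- at every time point, by 1.00 ± 0.15 (SE, limma adjusted p = 0.0151). H2ac19, on chromosome 3, stood at -1.10, -1.09, -0.98 and -0.89 in Atm-/- cultures, against -2.09, -2.10, -1.86 and -1.54 in Atm+/+ cultures. The genotypes did not overlap, and the difference was 0.88 ± 0.09 (limma adjusted p = 0.00618). H2ac7, H2ac10, H2ac12, H2ac13, H2ac15, H2ac20 and H2ac24 gave nearly the same difference, from 0.61 to 0.69. The largest of these was that of H2ac13, at 4.23, 4.16, 3.92 and 3.55 in Atm-/- cultures against 3.47, 3.34, 3.15 and 3.14 in Atm+/+ cultures. Whether these 7 probes read separate transcripts was not tested.

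H2ac11 went the other way. It stood at -2.57, -2.41, -2.72 and -3.63 in Atm-/- cultures, against -1.69, -1.69, -1.64 and -2.85 in Atm+/+ cultures. It was lower in Atm-/- at each time point although the ranges overlapped, with a difference of -0.86 ± 0.09 (limma adjusted p = 0.00608). The H2A genes that did not pass lay between 0.15 for H2ac6 and 0.61 for H2ac18.

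Of 14 H2B genes, 5 were higher and none lower in Atm-/- cultures, with a median of 0.43, and all 14 differences were above 0. H2bc22, the older Hist1h2bp and the head-to-head partner of H2ac22, was at -4.39, -4.58, -4.53 and -4.44 in Atm-/- cultures, against -5.65, -5.49, -5.10 and -5.22 in Atm+/+ cultures. The genotypes did not overlap, and the difference was 0.88 ± 0.13 (limma adjusted p = 0.0144). The Atm+/+ levels of H2bc22 were near the lowest level well above background on those arrays, -5.88 to -5.58. H2bc9, H2bc13, H2bc14 and H2bc15 were higher by 0.45 to 0.47. H2bc15 stood at 2.66, 2.71, 2.76 and 2.84 in Atm-/- cultures, against 1.98, 2.18, 2.47 and 2.46 in Atm+/+ cultures. H2bc21 and H2bc23 were closest to 0, at 0.06 and 0.03. For H2bc23 this averages gaps of opposite sign, 0.55 at 0 h and -0.20, -0.09 and -0.15 at 4, 8 and 24 h. H2bc18 (0.63 ± 0.25) did not pass and was well above background on only 6 arrays. The 5 H2B genes with an annotated span over 1000 bases were H2bc4, H2bc6, H2bc21, H2bc22 and H2bc23, and 1 of the 5 passed, with a median of 0.28.

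H3 and H4 form the tetramer at the centre of the nucleosome. They differed in their counts: 6 of 8 H4 genes were higher and none lower, with a median of 0.55, and 2 of 11 H3 genes were higher and 1 lower, with a median of 0.08. No test of the difference between the families was made. H4c8, the older Hist1h4h, stood at 0.43, 0.40, 0.52 and 0.68 in Atm-/- cultures, against -0.79, -0.60, -0.15 and 0.40 in Atm+/+ cultures. It was higher by 0.79 ± 0.17 (limma adjusted p = 0.0403), and the Atm+/+ values approached the Atm-/- values at 24 h. H4c2 was higher by 0.72 ± 0.13, and H4c4, H4c6, H4c9 and H4c18 by 0.44 to 0.55. H4c12 (0.34 ± 0.36) was well above background on 7 arrays and had the widest error of the family.

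Among H3 genes, H3c15, on chromosome 3, was higher in Atm-/- cultures, at 0.86, 0.98, 0.97 and 1.03 against -0.00, 0.45, 0.56 and 0.51 in Atm+/+ cultures. Its difference was 0.58 ± 0.10, and that of H3c8 was 0.38 ± 0.08 (limma adjusted p = 0.0228 and 0.0380). H3c10, the older Hist1h3h, stood at -4.48, -4.44, -4.54 and -5.24 in Atm-/- cultures, against -3.56, -3.61, -3.74 and -4.64 in Atm+/+ cultures. It was lower in Atm-/- at each time point, with a difference of -0.79 ± 0.08 (limma adjusted p = 0.00647). H3c7 (0.57 ± 0.15), H3c11 (0.34 ± 0.08) and H3c3 (-0.18 ± 0.14) did not pass, although for H3c11 the genotypes did not overlap. H3c2, H3c4, H3c6, H3c13 and H3c14 lay between -0.01 and 0.13. Of these H3c2 was highest, with Atm-/- and Atm+/+ values that overlapped, at 3.34, 3.30, 3.14 and 3.23 in Atm-/- cultures against 3.30, 3.13, 3.19 and 2.88 in Atm+/+ cultures.

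Both chromosomes carried genes that were higher: 19 of 39 on chromosome 13, with a median of 0.45, and 3 of 8 on chromosome 3, with a median of 0.59. The genotype calls depended on the arrays. Removing the outlier spots before scaling left 3 members higher and 2 lower. Of all probes it left 897 higher and 1352 lower, against 1696 and 1720 in the main fit. In this fit, leaving out an array of either genotype in effect drops its time point. Leaving out a 0, 4 or 8 h array left 1 to 3 higher and 2 lower, and leaving out a 24 h array gave 25 higher and 3 lower. The calls over all probes moved too, to 496 to 654 higher and 588 to 661 lower without a 0, 4 or 8 h array. Without a 24 h array they were 2256 higher and 1956 lower. In all of these fits each of the 24 called members kept its direction.

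The genotypes were also compared at each time, the untreated cultures included. With 1 array a genotype at each time, and so no replicate check, the median gap of the members was 0.57, 0.51, 0.34 and 0.36 at 0, 4, 8 and 24 h, against -0.01, 0.00, 0.01 and -0.04 over all probes. It was above 0 in 40 of 46, 40 of 46, 32 of 46 and 40 of 45 members measured on both arrays. The H2A median was 0.63, 0.73, 0.75 and 0.37, and the H2B median 0.56, 0.40, 0.22 and 0.40. At 0 h, 2 members were past 2-fold higher in Atm-/- cultures, H2bc22 (1.26) and H4c8 (1.22), and none lower, against 1.84% and 2.09% of all probes. The Atm+/+ 24 h array, with 1545 outlier spots, bears on the last time point only. The gap at 24 h was not recomputed with outlier spots removed before scaling, so its size there is uncertain. In the genotype fit, that setting moved the median of all probes from 0.01 to -0.06.

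**Figure D2:**
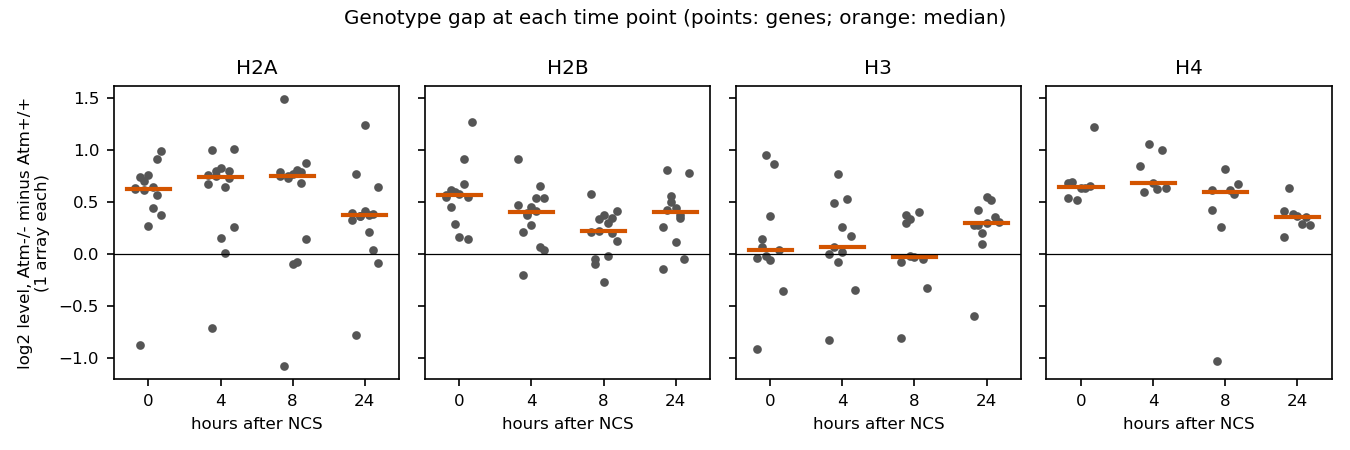
Log2 level in Atm-/- minus Atm+/+ at 0, 4, 8 and 24 h after NCS, by family, with 1 array a genotype at each time. Points are genes well above background on both arrays and orange bars are medians. With outlier spots kept in the scaling, H2A and H4 genes lie mostly above 0 at each time. The H2B median is lowest at 8 h, and the H3 median is nearest 0 at each time.

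After NCS, no core histone gene passed the test at 4 or 8 h. Set against 0 h with genotype as a term, 0 of 47 members were called at 4 h (0.107% of all probes were) and 0 at 8 h (0.258% of all probes were), by limma with Benjamini-Hochberg adjustment. At an unadjusted p under 0.05 the counts were 0 and 1. The largest differences at 4 h were 0.34 ± 0.35 for H2bc18, 0.28 ± 0.14 for H3c15 and 0.27 ± 0.15 for H2ac6, and on the other side -0.20 ± 0.51 for H4c12, -0.19 ± 0.12 for H4c18 and -0.15 ± 0.21 for H2ac22. At 8 h they were 0.91 ± 0.51 for H4c12, 0.38 ± 0.25 for H2bc6 and 0.37 ± 0.24 for H4c8, and on the other side -1.03 ± 0.21 for H2ac22, -0.33 ± 0.13 for H2ac7 and -0.32 ± 0.14 for H2ac13. H2ac22 was the member past an unadjusted p under 0.05 at 8 h (limma adjusted p = 0.213).

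At 24 h, 3 of 47 members were lower than at 0 h and none higher, against 1.48% and 1.07% of all 23169 probes tested. The 3 were H2ac22 with a difference of -1.43 ± 0.21, H2ac11 with -1.12 ± 0.12 and H3c10 with -0.93 ± 0.12 (SE, n = 2 arrays at each time, limma adjusted p = 0.0486, 0.0442 and 0.0456). These 3 also differed between genotypes, H2ac22 upward and the other 2 downward. H2ac22 was at 1.59 at 24 h against 3.003 at 0 h in Atm-/- cultures, and at 0.82 against 2.26 in Atm+/+ cultures. By 8 h it was already at 0.86 in Atm+/+ cultures, but still at 2.34 in Atm-/- cultures. H2ac11 and H3c10 were instead near their 0 h level at 8 h and lower at 24 h in both genotypes. These calls did not outlast the loss of any 1 of the 8 arrays. The same held for every probe called lower, so this loss was not particular to the members. With outlier spots taken out ahead of the scaling, 0 members and 2 of all probes were called lower, against 343 of all probes in the main fit. The 3 differences kept their sign in each of those fits, from -1.60 to -1.26 for H2ac22 and from -1.17 to -1.06 for H2ac11 when 1 array was left out.

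**Figure D3:**
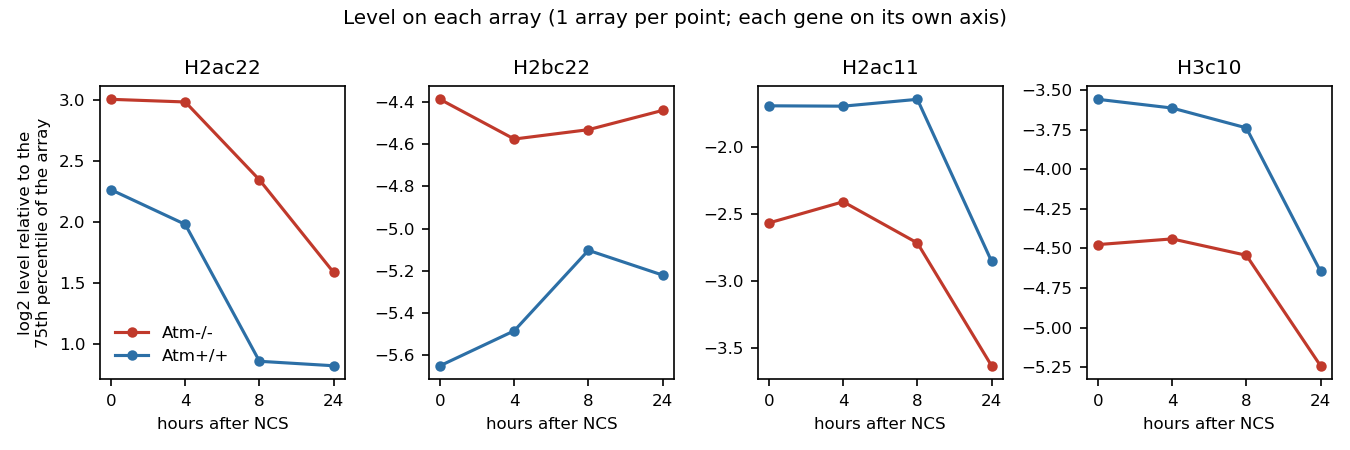
Log2 level, scaled by each array's 75th percentile, for H2ac22, H2bc22, H2ac11 and H3c10, by hours after NCS, in Atm-/- (red) and Atm+/+ (blue), with 1 array a point and an axis for each gene. H2ac22 is lower at 24 h than at 0 h in both genotypes. H2bc22 is nearly flat in Atm-/-, slightly below its 0 h level, and above its 0 h level in Atm+/+. H2ac11 and H3c10 are lower in Atm-/- and drop at 24 h in both genotypes.

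At 24 h the families lay on different sides of 0, mostly with differences that did not pass. Differences were below 0 in 11 of 14 H2A genes (median -0.37) and 9 of 11 H3 genes (median -0.26), and above 0 in 13 of 14 H2B genes (median 0.25) and 4 of 8 H4 genes (median 0.05), against a median of -0.07 over all probes. The largest upward differences, none of which passed, were 1.13 ± 0.25 for H2bc6, 0.72 ± 0.24 for H4c8 and 0.59 ± 0.17 for H2bc7 (limma adjusted p = 0.0816, 0.146 and 0.113). H2bc6 stood at -4.30, -4.04, -4.20 and -2.91 at 0, 4, 8 and 24 h in Atm-/- cultures, and at -4.59, -4.32, -3.93 and -3.72 in Atm+/+ cultures. With outlier spots removed before scaling, the median of all probes moved to 0.12, those of H2A, H2B, H3 and H4 to -0.17, 0.45, -0.07 and 0.25. The medians also moved with single arrays. Without the Atm+/+ 24 h array they were -0.55 for H2A, 0.21 for H2B, -0.12 for H3 and -0.10 for H4, and without the Atm-/- 24 h array -0.21, 0.33, -0.39 and 0.17. Without the Atm-/- 0 h array they were -0.35, 0.41, -0.31 and 0.12, and without the Atm+/+ 0 h array -0.39, 0.11, -0.20 and -0.0056. The H4 median thus changed sign, and those of H2A, H2B and H3 did not.

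**Figure D4:**
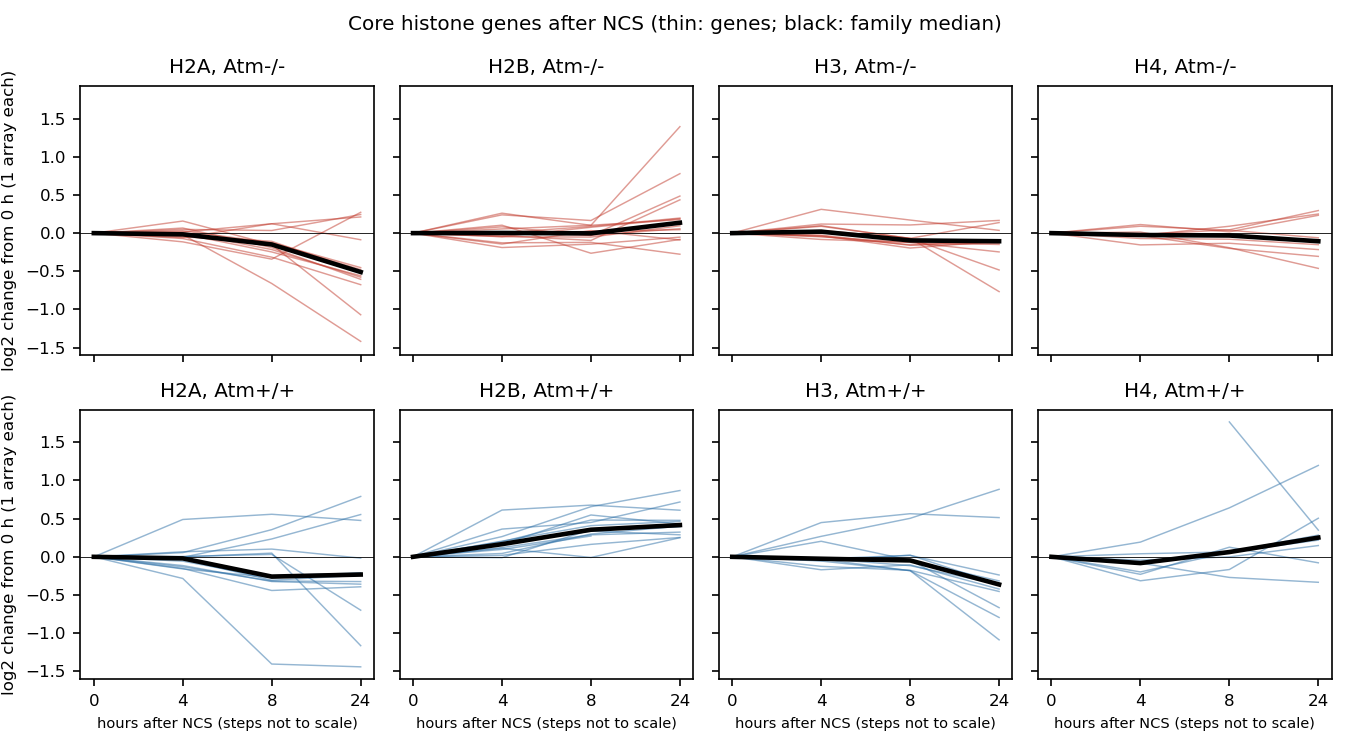
Log2 change from 0 h by hours after NCS for each kept core histone gene, by family, in Atm-/- (upper row) and Atm+/+ (lower row), with 1 array a point. Thin lines are genes well above background on both arrays and black lines family medians. With outlier spots kept in the scaling, H2A medians end below 0 and H2B medians above 0 in both genotypes. The Atm+/+ 24 h points come from the array with 1545 outlier spots.

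Within each genotype, with 1 array a time point and no replicate check, the 24 h medians in Atm-/- cultures were -0.51 for H2A, 0.14 for H2B, -0.11 for H3 and -0.11 for H4. In Atm+/+ cultures they were -0.23, 0.42, -0.36 and 0.25. Past 2-fold at 24 h, Atm-/- cultures had 1 member higher (H2bc6, 1.39) and 2 lower (H2ac22 and H2ac11), against 1.99% and 2.5% of all probes. Atm+/+ cultures had 1 higher (H4c8, 1.20) and 3 lower (H2ac22, H2ac11 and H3c10), against 1.88% and 2.15%. The Atm+/+ H2B medians were already at 0.17 and 0.35 at 4 and 8 h, those of Atm-/- cultures at 0.00 and -0.00. All these Atm+/+ values and counts at 24 h rest on the array with 1545 outlier spots. They were not recomputed with outlier spots removed before scaling. In the 24 h fit over both genotypes, that setting moved the H2A median from -0.37 to -0.17 and the H3 median from -0.26 to -0.07.

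Head-to-head partners lay on opposite sides of 0 at 24 h, as most H2A and H2B genes did. In the fit, 11 of 14 H2A genes were below 0 and 13 of 14 H2B genes above 0. A split within pairs therefore largely follows from that of the families and is not shown to be a trait of pairs. There were 8 H2A and H2B genes on opposite strands with starts 164 to 281 bases apart, and in 7 of these pairs both genes were kept. In the fit over both genotypes, the H2A partner was below 0 and the H2B partner above 0 in 7 of 7. On the single arrays this held in 5 of 7 pairs in Atm-/- cultures, where H2bc22 (-0.05) and H2bc8 (-0.08) were also below 0, and in 7 of 7 in Atm+/+ cultures. The Atm+/+ count rests on the array with 1545 outlier spots, and its H2A partner nearest 0 was H2ac8, at -0.02. That count was not repeated with outlier spots removed before scaling, which moved the H2A median of the 24 h fit from -0.37 to -0.17. In the fit, the widest gap was in the pair whose promoter is shown first, H2ac22 at -1.43 and H2bc22 at 0.19 (0.18 SE), followed by H2ac11 at -1.12 and H2bc11 at 0.25. H2ac7 was at -0.48 and its partner H2bc7 at 0.59. The count in the fit was 6 with normexp background correction and 6 without the Atm+/+ 0 h array, and 7 with quantile normalization or with outlier spots removed first. Between genotypes, 6 of 7 pairs had both partners above 0, the exception being H2ac11 (-0.86) with H2bc11 (0.37). Only 2 of these 14 changes at 24 h passed the test, those of H2ac22 and H2ac11, and H2A and H2B probes may each read several copies, so the pairs are not independent of one another.

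**Figure D5:**
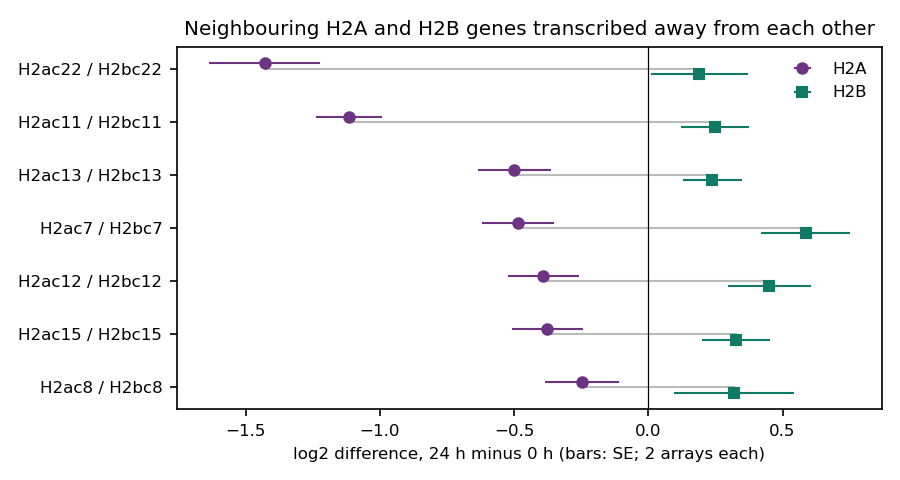
Log2 difference, 24 h minus 0 h with genotype as a term, in 7 head-to-head H2A and H2B gene pairs, bars SE from 2 arrays at each time. Each row is a pair; circles are H2A and squares H2B. In this average over the genotypes each H2A gene lies left of 0 and its H2B partner right of it, which on the Atm-/- arrays alone held in 5 of the 7 pairs.

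The response to NCS was not shown to differ between genotypes for any member. In the fit with a genotype by treatment term, which has 2 residual degrees of freedom, 0 of 47 members and 0 of 23168 probes (0%) were called by limma, and 1 member and 570 probes had an unadjusted p under 0.05. The largest differences of response, Atm-/- minus Atm+/+, were -0.70 ± 0.19 for H2bc23, -0.59 ± 0.29 for H2bc8 and -0.57 ± 0.34 for H4c8, and on the other side 0.34 ± 0.34 for H2ac22, 0.25 for H3c11 and 0.23 for H3c3.

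Linker histones, which bind DNA between nucleosomes, are also replication-dependent in H1f1 to H1f5. Of these, 4 of 5 were kept and none passed. H1f1 was well above background on 4 Atm-/- arrays and on 0 Atm+/+ arrays, so no difference is given for it. The median of the other 3 was 0.55 between genotypes and 0.58 at 24 h, where H1f4 was at 0.84 ± 0.18. The histone genes listed as replication-independent, which encode variant histones, gave 10 of 11 measured genes with a genotype median of -0.12. The form in which their mRNAs end was not tested. H2aj, an H2A variant gene, was the 1 gene of the list that passed, lower in Atm-/- cultures with a difference of -1.16 ± 0.19 (limma adjusted p = 0.0192). At 24 h, H2ax, whose protein is phosphorylated at DNA breaks, was lower with a difference of -1.14 ± 0.13, fitted without the Atm+/+ 24 h value, and H2az1 with -0.72 ± 0.10 (limma adjusted p = 0.0486 and 0.0462). Both calls were lost when any 1 of the arrays in their fits was left out, as was every lower call over all probes. The median of this list at 24 h was -0.52.

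None of 20 measured genes for histone gene transcription and for processing, translation or decay of histone mRNA passed in any comparison. Npat differed by 0.06 ± 0.10 between genotypes and by -0.40 ± 0.15, -0.34 ± 0.15 and -0.20 ± 0.15 at 4, 8 and 24 h. Slbp differed by 0.18 ± 0.21 between genotypes and by -0.05 ± 0.29, -0.27 ± 0.29 and -0.26 ± 0.29 at 4, 8 and 24 h. At 24 h, 19 of these 20 genes were below 0, with a median of -0.27. Of 19 histone chaperone genes, whose proteins carry histones to DNA, 1 was lower at 24 h, Nasp at -0.64 ± 0.09, and the median was -0.41. The Nasp call, like every lower call over all probes, was lost when any 1 array was left out.

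S phase and DNA replication genes, which mark the phase in which core histone mRNA accumulates, were tested in the same fits. Of 41 measured, 0 were higher and 1 lower in Atm-/- cultures, Mcm6 of the replicative helicase at -0.85 ± 0.14, with a median of -0.07 against 0.46 for core histone genes. That median averages over the time points. With 1 array a genotype at each time, the median gap was -0.28, -0.04, 0.06 and -0.07 at 0, 4, 8 and 24 h. At 0 h, 31 of 39 S phase genes were below 0, where the core histone median was 0.57. At 24 h, 10 of 41 were lower and none higher, and 40 of 41 were below 0, with a median of -0.79. Among the largest were Tk1, which makes thymidine monophosphate (-1.22 ± 0.15), Cdt1, which licenses origins (-1.10 ± 0.14), the primase gene Prim1 (-1.02 ± 0.12) and cyclin gene Ccna2 (-0.99 ± 0.10). Of core histone genes, 3 of 47 were lower at that time, with a median of -0.04, and the lists were not tested against each other. Like the 3 core histone calls, these calls rest on all 8 arrays: Tk1, Cdt1, Prim1 and Ccna2 did not pass when any 1 array was left out. Nor did any other probe called lower. In bulk cultures, a change in the share of cells in S phase and a change in histone RNA per cell cannot be told apart.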

How the data were processed

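RNA of 8 MEF cultures was read on one-colour Agilent arrays, 1 per genotype and time point. The deposited intensity values were made with Feature Extraction 10.5.1.1, per the file headers (the processed signal, corrected for background within the array and not normalized between arrays). The array design follows mm9. The authors' other deposited tables hold noncoding probes only and were not used. Symbols came from the RefSeq transcript of each probe: 22216 probes matched 1 symbol. Each array's log2 deposited intensity was set relative to its 75th percentile, control spots were left out, and values whose only spot was marked as an outlier were dropped. Probes well above background on at least 2 arrays were tested with limma 3.58.1 (R 4.3.3), two-sided, with Benjamini-Hochberg adjustment over all kept probes and a threshold of 0.05. Genotype was fitted with time point as a term and time with genotype as a term (3 residual degrees of freedom). The number of arrays limits the precision. Members with a call were named, up to 10 a direction, otherwise the 3 largest differences a direction. From other lists the 5 largest called genes were named, with Npat, Slbp and Atm. A gene that this rule would name is not reported here. Alternatives were quantile normalization, normexp (offset 50), other background filters, outlier removal before scaling, a model without the second term, the mean of a gene's probes and each array left out. The members and lists were chosen with earlier results of these data known. The fit was tested on simulated data.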

Additional observations from a re-analysis of the deposited data

Results flagged for a closer look

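H2bc22 is listed because its single-array changes from 0 h were all below 0 in Atm-/- and all above 0 in Atm+/+ cultures. How many of all probes meet this rule was not counted. In Atm-/- cultures H2bc22 changed by -0.19, -0.14 and -0.05 from 0 h to 4, 8 and 24 h, and in Atm+/+ cultures by 0.17, 0.55 and 0.43. Its Atm+/+ levels (-5.65, -5.49, -5.10 and -5.22) were near the lowest level well above background on those arrays (-5.88, -5.86, -5.74 and -5.58). The difference of the medians of the 3 changes was -0.57, and this opposition itself was not tested. In the fit with a genotype by treatment term the difference was -0.51 ± 0.23 (limma adjusted p = 1.00).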

How the results depend on the processing

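The 24 members called between genotypes kept their direction in each alternative. The count called higher (22) was 3 with outlier spots removed before scaling, and 1 to 25 with 1 array left out. Over all probes it was 897 and 496 to 2256, against 1696. The count called lower (2) was 0 without time point in the model, and 2 to 3 with 1 array left out. Over all probes it was 1049 and 588 to 1956, against 1720. The split of all calls, 49.6% higher, was 37.1% with normexp and 39.9% with outlier spots removed first. The members' genotype median (0.46) was 0.33 with normexp. At 4 h the median of -0.0017 was 0.026 with quantile normalization, 0.020 with normexp, -0.0081 with outlier spots removed first and -0.038 to 0.056 with 1 array left out. At 24 h the 3 members called lower were 0 with probes well above background on at least 1 array, with outlier spots removed first and without genotype in the model. Of all probes, 0, 2 and 2 were then called lower, against 343. Every lower call, of members and of all probes, was lost with any 1 array left out. Outlier removal first moved the median of all probes by 0.19 at 24 h and by -0.12 in the difference of response. The members' medians were then 0.15 and -0.23. The 24 h calls of all probes fell from 248 higher and 343 lower (42.0% higher) to 31 higher and 2 lower (93.9% higher). Signs turned only for differences that were not called. With outlier spots removed first these were the genotype difference of Npat (-0.014) and the 24 h difference of Atm (0.035). With 1 array left out, the genotype differences ranged from -0.039 to 0.13 for Npat and from -0.072 to 0.30 for Slbp. At 4 h they ranged from -0.32 to 0.019 for H2ac22, from -0.029 to 0.71 for H2bc18, from -0.69 to 0.28 for H4c12 and from -0.26 to 0.15 for Slbp. At 8 h they ranged from -0.51 to 0.14 for Atm and from -0.0098 to 1.82 for H4c12, and at 24 h from -0.51 to 0.19 for Atm and from -0.76 to 0.24 for Slbp. The difference of response ranged from -0.43 to 0.071 for Atm and from -0.19 to 0.061 for Npat. The cause of these shifts was not tested. In the genotype and difference of response fits a left-out array in effect drops its time point, with the same values for either genotype. In the time fits, leaving out an array of a compared time leaves a lone array there, assumed to vary like the other groups. Results for the families and the head-to-head pairs were chosen after seeing the data. The mean of a gene's probes changed nothing, as each member had 1 probe. The genotype fit already sets the arrays of a time point against each other, and no further block was fitted because the labels give no replicate numbers.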
